A study of Mus musculus with 28 samples.

Results

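Cytosolic ribosomal protein genes encode the proteins of the ribosome that translates messenger RNA in the cytosol. They were taken here as every gene whose platform annotation symbol is Rpl or Rps followed by a number, with an optional l, a, x or y suffix, or Rplp0 to Rplp2 or Rpsa. Mitochondrial ribosomal proteins (Mrpl, Mrps) and the S6 kinases (Rps6k) were left out, and only probe sets with 1 symbol were used. This gave 46 genes of the 18193 with such a probe set, 24 of the large subunit and 22 of the small subunit, measured by 100 probe sets. Symbols found only on probe sets shared with other symbols, 28 of the family, were not analysed here. Among these were Rpl10, Rpl36a, Rpl3 and Rplp1.

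RNA came from testes of adult male C57BL/6 mice and was measured on 28 one-colour arrays in 10 groups. KO mice are null for GRTH (gonadotropin-regulated testicular RNA helicase, encoded by Ddx25), and WT mice are their wild-type controls. The groups were KO and WT polysome RNA from sucrose gradients (3 arrays each), KO and WT spermatocytes (4 each), KO and WT round spermatids (3 each) and KO and WT Leydig cells (2 each), the cells being separated by centrifugal elutriation. The remaining groups were RNA immunoprecipitated (IP) from WT polysomes by an antibody to GRTH or by IgG as control, 2 arrays each, labelled by a procedure with an added amplification step. Nothing in the labels places replicates in separate animals, so p-values reflect only how far these samples spread, and that spread may be technical.

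Ddx25 itself gave 598 to 1063 signal units in KO polysome RNA, against 14624 to 21149 in WT, and 2990 to 4596 on the arrays of KO cells, against 12998 to 18439 on those of WT cells. Whether its probe set lies in the deleted stretch is not stated in the labels. The free-text descriptions of 4 arrays (KO polysome 1, WT polysome 1 and 2, IgG IP 1) name another group than their titles, which were followed. The IP arrays stood apart, with an actin 3′ to 5′ probe signal ratio of 3.81 to 12.8, against 1.41 to 2.09 on the other arrays, and their replicates differed most. The fractions labelled Leydig cells held Leydig markers (summed signal 37899 to 38488 in KO, 20473 to 20492 in WT), and also spermatocyte markers (25243 to 25358 in KO, 29277 to 29282 in WT) close in sum to those of the WT spermatocyte arrays (29626 to 32622). They are therefore called Leydig fractions. In such bulk RNA, fewer cells of a type and less RNA per cell cannot be told apart.

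A cytosolic ribosome carries 1 copy of nearly every ribosomal protein, with the acidic stalk proteins as the known exception, and cells produce these proteins in step with ribosomal RNA. Their messenger RNAs begin with a run of pyrimidines that ties their translation to growth signals. Male germ cells are known for copies of some members: genes on the X chromosome are silenced during meiosis, and autosomal copies of several X-linked ribosomal protein genes are transcribed in these cells.

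The 3 genes below differed most from the rest of the family in the results that follow, and their promoters are shown so that a reader can see what they do and do not share. Each run is 80 bases of GRCm38.p6 from RefSeq's table, 60 before and 20 from the annotated start, 5′ to 3′ on the gene's strand. Rps25 lies at chr9:44407654-44407733 (plus strand), Rps4x at chrX:102189372-102189451 (minus strand) and Rpl10a at chr17:28328411-28328490 (plus strand). Capitals mark CTTTCC, or CCGGAA, which is a core of ETS-family sites, or their reverse complements GGAAAG and TTCCGG.
Rps25: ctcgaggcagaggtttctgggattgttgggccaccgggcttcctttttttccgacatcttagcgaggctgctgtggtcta
Rps4x: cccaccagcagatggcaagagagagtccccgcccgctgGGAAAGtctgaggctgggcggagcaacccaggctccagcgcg
Rpl10a: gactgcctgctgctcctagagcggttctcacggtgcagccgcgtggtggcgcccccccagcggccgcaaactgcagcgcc
Over the 300 bases of the table, CCGGAA on either strand was in 26 of 48 member promoters (54.2%), which belong to 40 genes, and in 14.9% of all 32851 promoters. CTTTCC was in 22 of the 48 (45.8%) and in 26.6% of all promoters. In the 300 bases, Rps25 held CCGGAA, Rps4x held CTTTCC and Rpl10a held neither, which says only that these letters are not in this window. None of the 3 sequences shown has a run of pyrimidines at its annotated start. Whether transcripts in these samples begin at the annotated starts was not tested. The table holds no promoter of Rpl7, Rpl8, Rps4l, Rps14, Rps20 or Rps29.

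Across the 8 groups other than the IP groups, most ribosomal protein genes kept nearly the same level relative to the rest of the array. Of the 46, 40 were at or above the median level of all genes over the 28 arrays. Over these 40, the distance between a gene's highest and lowest group mean had a median of 0.76 on the log2 scale, against 1.65 for all genes at or above that level. These sets were not matched for level, since 34 of the 46 members were in the top 5% of mean level. The part of brightness in the narrower distance was not tested. The members with the widest distance were Rps4x (4.57), Rps25 (2.74), Rpl10a (2.07) and Rpl27a (2.07) among those above the median, while Rps6 (2.06) and Rpl14 (2.25) lay below it and were dim. Summed over its 46 genes, the family held 2.09% of the array's summed signal in KO polysome RNA and 1.86% in WT, 2.15% and 2.06% in KO and WT spermatocytes, 1.97% and 1.96% in KO and WT round spermatids, and 2.04% and 1.91% in KO and WT Leydig fractions. These shares had SDs of 0.00731 to 0.17 percentage points over the arrays of a group. The IP groups had higher shares, 4.37% (SD 0.604) with GRTH antibody and 3.35% (SD 0.986) with control IgG. Their labelling had an added amplification step, and its part in these shares was not tested.

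**Figure D1:**
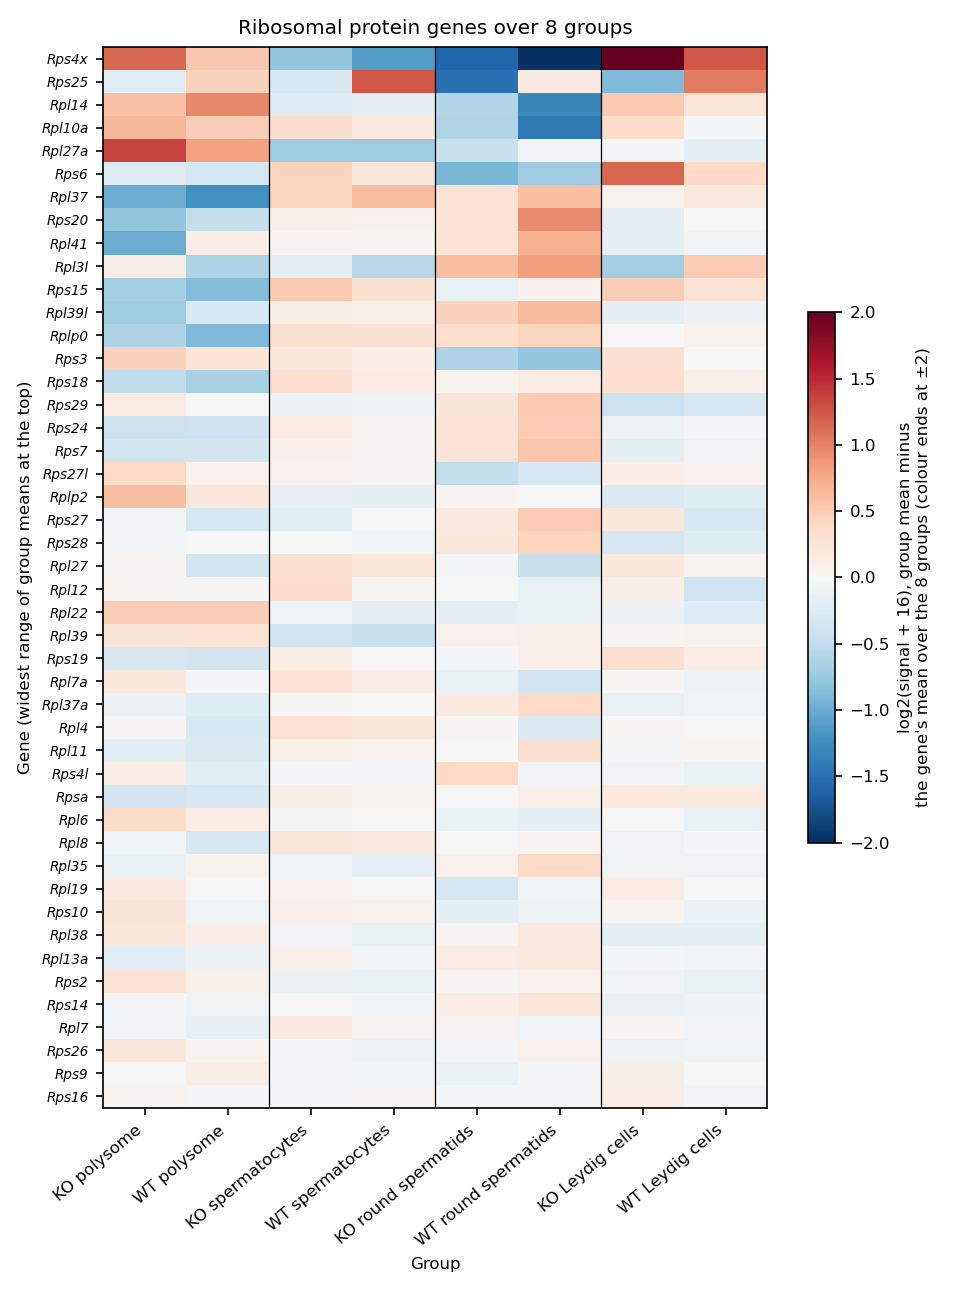
Group mean of log2(signal + 16) for each of the 46 ribosomal protein genes in 8 groups, minus the gene's own mean over the 8 groups, in colour from −2 (blue) to 2 (red, ends clipped). Rps4x, Rps25 and Rpl10a are among the genes at the top with the strongest colours, and most of the other genes stay pale in every group.

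The first question was whether the loss of GRTH changed ribosomal protein transcripts. In polysome RNA, 0 of the 39 members tested passed an adjusted p of 0.05 (limma, Benjamini-Hochberg over all 9097 genes tested), where 6.34% of all genes did (0.572% higher and 5.77% lower). Only 1 member, Rpl41, had an unadjusted p under 0.05, while a fit blocked on replicate number called 3 members, 2 higher and 1 lower. In spermatocytes 4 of 41 members passed, Rps4x, Rps15 and Rpl10a higher and Rps25 lower, against 37.4% of all genes (19.6% higher and 17.8% lower). With the replicate block 13 members passed there, 11 higher and 2 lower, and without any 1 of 4 arrays (KO 1 or 2, WT 3 or 4) 2 passed. In round spermatids 13 of 41 passed, 5 higher and 8 lower, against 63.4% of all genes (41% higher and 22.4% lower). In the Leydig fractions 26 of 40 passed, 18 higher and 8 lower, against 77.9% of all genes (38.6% higher and 39.3% lower). That split turned with the scaling: quantile normalization gave 30 higher and 2 lower, and centring on medians 3 higher and 34 lower. Under all 3 scalings Rpl10a, Rps4x and Rps6 were called higher and Rps20 and Rps25 lower. In each source the share of members called was below that of all genes tested. The fit of all 28 arrays called 2 members in round spermatids and 2 in the Leydig fractions. Markers of elongating spermatids, the cells that follow round spermatids, fell in KO in all 4 sources for 10 of 10 genes, with summed signals of 28160 to 54228 in KO polysome RNA and 209898 to 441764 in WT, and of 191339 to 242356 in KO round spermatids and 289923 to 399248 in WT. In spermatocytes the sums were 69194 to 76697 in KO and 119673 to 148594 in WT, and in the Leydig fractions 114948 to 117276 in KO and 167969 to 169844 in WT. Their part in the ribosomal protein values was not tested.

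The middle of the family moved little. The median log2 difference, KO minus WT, was 0.15 for the members in polysome RNA, beside 0.13 for all genes tested, 0.06 beside 0.03 in spermatocytes, −0.11 beside 0.15 in round spermatids and 0.03 beside −0.01 in the Leydig fractions. In round spermatids 10 members lay above 0 and 31 below at this scaling, while most lay above 0 with quantile normalization. The 5 to 7 members below the filter on dim genes in each comparison were not tested.

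**Figure D2:**
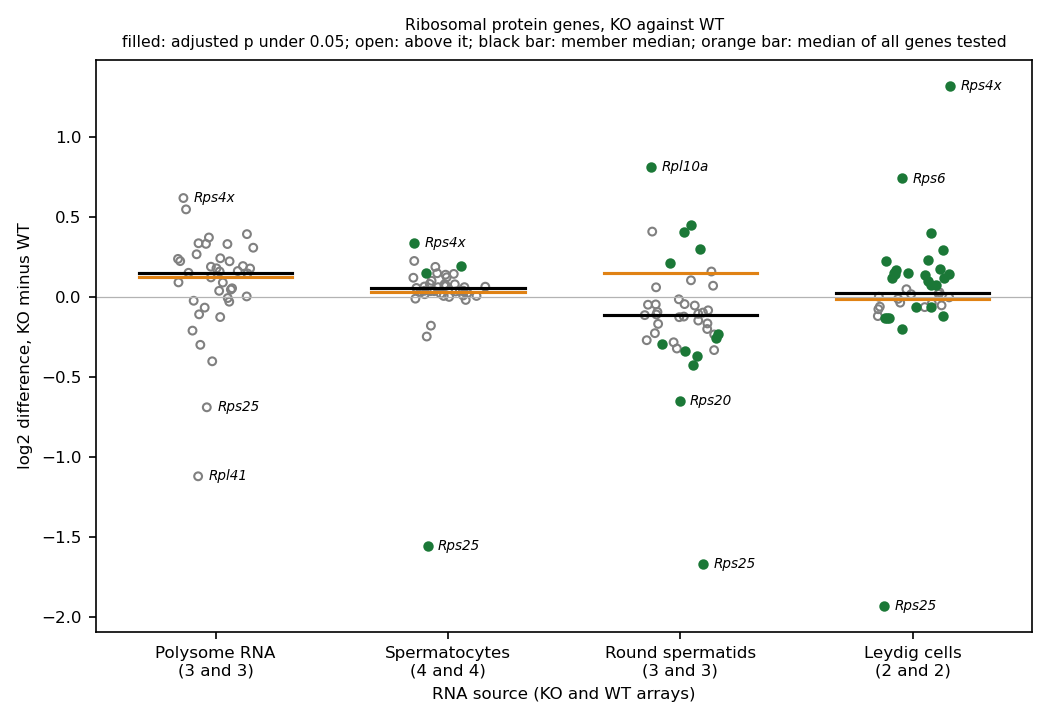
The log2 difference, KO minus WT, of each ribosomal protein gene tested in 4 RNA sources (vertical axis), filled where the adjusted p was under 0.05, with the member median in black and the median of all genes tested in orange. Rps25 lies far below the other members in the 3 cell fractions, at −1.55, −1.67 and −1.93, and Rps4x is the highest in the Leydig fractions at 1.32.

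Rps25 was the member with the largest KO difference in every cell fraction. It encodes a protein of the small subunit's head that is known for its part in initiation at internal ribosome entry sites. It had 646, 613, 499 and 494 units in KO spermatocytes, against 1729, 1645, 1671 and 1648 in WT. In round spermatids it had 210, 263 and 242 units in KO, against 784, 850 and 743 in WT. The Leydig fractions had 372 and 369 units in KO, against 1463 and 1452 in WT. Every KO array of these 3 cell fractions lay below every WT array of its fraction, with no overlap. The log2 difference was −1.55 ± 0.09 in spermatocytes (SE, adjusted p = 1.76e-06), −1.67 ± 0.10 in round spermatids (adjusted p = 1.35e-05) and −1.93 ± 0.02 in the Leydig fractions (adjusted p = 2.38e-05), falls of 2.94, 3.18 and 3.81 times. Rps25 was the only member whose call held under every alternative run in each of these fractions. The KO effect in round spermatids minus that in spermatocytes was −0.12 ± 0.14 (adjusted p = 0.505), so no difference between the stages was shown.

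Polysome RNA was different for Rps25, with 496, 450 and 939 units in KO, against 1452, 1072 and 581 in WT. The groups overlapped: the KO arrays numbered 1 and 2 were below both same-numbered WT arrays, at 0.341 and 0.42 of their signal, whereas KO array 3 was at 1.62 times WT array 3. The difference was −0.69 ± 0.38 (adjusted p = 0.359), and +0.16 (adjusted p = 0.891) without the arrays of conflicting description, which leaves 1 WT array assumed to vary like the KO arrays. Rps25 and Ddx25 are both on chromosome 9 in RefSeq, where Rps25 is the member next along from Ddx25, followed by Rpl4, Rps27l, Rpsa and Rpl14. Of these, Rpl4 passed the test in round spermatids only, at 0.30 ± 0.07 (adjusted p = 0.00811), and in the opposite direction. Rps27l and Rpsa passed in none of the 4 comparisons, with differences between −0.17 and 0.31, and Rpl14 was too dim to be tested. The part that position plays in the Rps25 values was not tested. A single probe set measured Rps25.

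**Figure D3:**
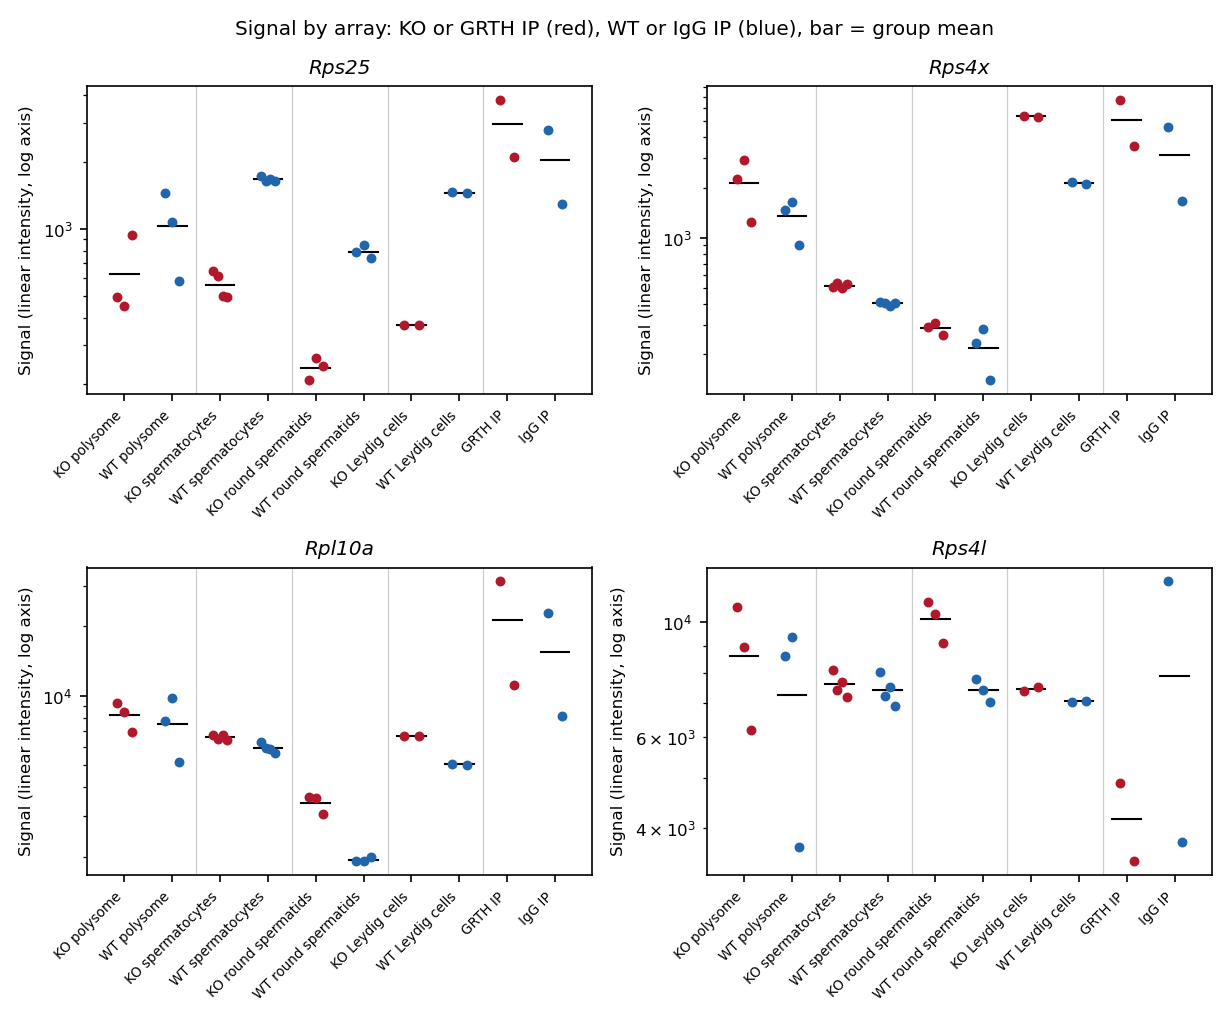
Signal of Rps25, Rps4x, Rpl10a and Rps4l on each array (points, log axis in linear intensity units) in the 10 groups, KO or GRTH IP in red and WT or IgG IP in blue, with the group mean as a bar. Rps25 is lower on every KO array than on every WT array of the 3 cell fractions, Rps4x falls through the germ cell stages and is highest in the KO Leydig fraction outside the IP arrays, and Rpl10a is lowest in WT round spermatids.

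Rps4x encodes a small-subunit protein and lies on the X chromosome, and Rps4l is its copy on chromosome 6. Rps4x had 5411 and 5344 units in the KO Leydig fraction, against 2165 and 2115 in WT, without overlap. The difference was 1.32 ± 0.02 (adjusted p = 2.47e-05). Leydig markers (4 of 4 measured rose there, with the sums given above) and macrophage markers (6 of 6 rose, summed signal 7728 to 7737 in KO and 3192 to 3234 in WT) moved the same way, and their part in the result was not tested. A further probe set of Rps4x was dim, and with the mean of both the difference was 0.41 (adjusted p = 0.0937). In spermatocytes Rps4x had 507, 537, 499 and 525 units in KO, against 410, 406, 392 and 409 in WT. It rose by 0.34 ± 0.04 (adjusted p = 0.000225), and 3 of 4 Leydig markers rose beside it (summed signal 5714 to 6321 in KO, 4019 to 4645 in WT). That call was lost with the mean of both probe sets (adjusted p = 0.486). In round spermatids the KO arrays (292, 309 and 260 units) overlapped with the WT arrays (234, 284 and 141 units). The difference was 0.41 ± 0.22 (adjusted p = 0.136), with 0.61 (adjusted p = 0.0345) without WT array 2 and 0.14 (adjusted p = 0.277) without WT array 3. In polysome RNA Rps4x differed by 0.62 ± 0.35 (adjusted p = 0.369), and the replicate block gave adjusted p = 0.0159 for the same difference.

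Rps4l followed another course. It had 10936, 10372 and 9118 units in KO round spermatids, against 7775, 7408 and 7019 in WT, with no overlap. The rise was 0.45 ± 0.09 (adjusted p = 0.00292) and held under every alternative except the fit of all 28 arrays (adjusted p = 0.319). In spermatocytes it differed by 0.04 ± 0.06 (adjusted p = 0.664), and the KO effect was larger in round spermatids by 0.42 ± 0.10 (adjusted p = 0.00494, and 0.088 with nearly identical arrays averaged). Rps4l also rose in the Leydig fractions, by 0.08 ± 0.02 (adjusted p = 0.0282), a call that did not hold under all 3 scalings.

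Rpl10a encodes a protein of the mobile stalk beside the ribosome's exit site for transfer RNA. It had 3628, 3603 and 3049 units in KO round spermatids, against 1909, 1908 and 1985 in WT. These groups did not overlap, and the rise was 0.82 ± 0.08 (adjusted p = 0.000156), or 1.76 times, with adjusted p = 0.0523 only in the fit of all 28 arrays. Among spermatocyte markers 4 of 6 rose and 1 fell in KO round spermatids, with a median of 0.77, beside 0.15 for all genes, while their summed signal was 29100 to 31169 in KO and 29688 to 34913 in WT. Spermatogonial markers rose for 4 of the 5 tested, with a median of 0.44 and sums of 3356 to 3664 in KO and 2288 to 2630 in WT. Rpl10a itself was at 5623 to 6317 units in WT spermatocytes, and the part of these cells in its rise was not tested. In spermatocytes the difference was 0.15 ± 0.05 (adjusted p = 0.0301), a call lost when any of 6 arrays was left out in turn. In the Leydig fractions Rpl10a rose by 0.40 ± 0.02 (adjusted p = 0.000161). The KO effect was larger in round spermatids than in spermatocytes by 0.66 ± 0.09 (adjusted p = 7.45e-05).

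Among the other small-subunit genes, Rps20, whose protein sits in the small subunit's head, had 22515, 20310 and 18445 units in KO round spermatids, against 38901, 33633 and 24980 in WT. The WT arrays spread more widely than the KO arrays, but the groups did not overlap. Rps20 fell by 0.65 ± 0.16 (adjusted p = 0.00925), and the mean over its probe sets gave −0.38 (adjusted p = 0.0651). Rps15, a protein needed for the maturation of the small subunit, had 6036, 5656 and 5710 units in KO round spermatids, against 7341, 6991 and 6163 in WT, a fall of 0.23 ± 0.08 (adjusted p = 0.04). With quantile normalization the difference was −0.07 (adjusted p = 0.351). In spermatocytes the same gene rose by 0.19 ± 0.05 (adjusted p = 0.0211), with 9904, 9296, 9106 and 8620 units in KO and 8526, 8095, 7980 and 7660 in WT. That call was lost without any 1 of 4 arrays (WT spermatocytes 3 or 4, KO spermatocytes 1 or 2). It was also lost with centring on medians (adjusted p = 0.0792) and without the filter on dim genes (adjusted p = 0.0742). The mean of probe sets gave adjusted p = 0.0594, and averaging nearly identical arrays gave 0.208. The KO effects on Rps15 in the 2 stages, opposite in direction, differed by −0.43 (adjusted p = 0.00265, and 0.0857 with nearly identical arrays averaged). For that difference the other probe set of Rps15 gave −0.13 (adjusted p = 0.283).

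In the large subunit, Rpl27 had 10453, 9752 and 9034 units in KO round spermatids, against 7434, 7186 and 7345 in WT, a rise of 0.41 ± 0.07 (adjusted p = 0.00209). Its other probe sets gave 0.14 and 0.02, and neither passed. Rpl4, whose protein reaches into the tunnel of the nascent chain, rose by 0.30 ± 0.07 (adjusted p = 0.00811), and Rpl7a rose by 0.21 ± 0.07 (adjusted p = 0.0338). Rpl41, the smallest ribosomal protein, at the bridge between the subunits, had 24606, 21807 and 18973 units in KO round spermatids, against 31858, 28885 and 26917 in WT. It fell by 0.43 ± 0.11 (adjusted p = 0.0113). Rpl27a fell by 0.37 ± 0.11 (adjusted p = 0.018), Rpl11, which also binds the regulator Mdm2, by 0.33 ± 0.09 (adjusted p = 0.0109), and Rpl35, at the mouth of the tunnel, by 0.29 ± 0.06 (adjusted p = 0.00471). Several of these calls changed with settings. Quantile normalization ended those of Rpl41 (adjusted p = 0.369), Rpl11 (adjusted p = 0.637) and Rpl35 (0.05, adjusted p = 0.615). Centring on medians ended those of Rpl4 (0.19, adjusted p = 0.0843) and Rpl7a (0.10, adjusted p = 0.345), and the Rpl4 call was also lost with nearly identical arrays averaged (adjusted p = 0.0573). The Rpl27a call was lost without any 1 of 4 arrays (WT round spermatids 1 or 2, KO round spermatids 1 or 2), and the Rpl7a call without any 1 of 4 arrays (WT 2 or 3, KO 1 or 2).

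The balance of rises and falls in round spermatids turned with the scaling of the arrays. With arrays scaled to a trimmed mean of 500 it was 5 higher and 8 lower, with median centring 3 higher and 18 lower, and with quantile normalization 20 higher and 4 lower. Median centring and quantile normalization shifted the median of all genes tested by −0.115 and −0.108. All 3 scalings gave Rpl10a, Rpl27 and Rps4l as higher and Rps25, Rps20 and Rpl27a as lower. Rpl27a was at a low signal, with 298 to 371 units in KO and 379 to 452 in WT round spermatids. The 99th percentile of the signal was 14415 to 16823 on KO round spermatid arrays, against 17469 to 21807 on WT arrays, so the brightest probe sets differed between the groups. Its part in the balance was not tested.

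**Figure D4:**
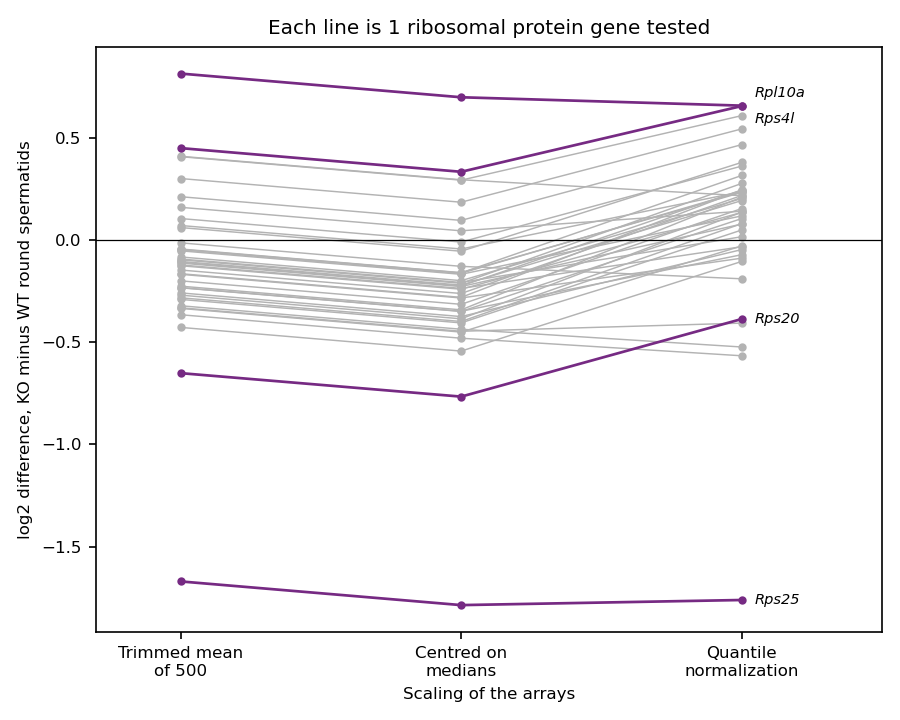
The log2 difference, KO minus WT, in round spermatids for each ribosomal protein gene tested (1 line each) under 3 scalings of the arrays. Most lines lie below 0 with the trimmed mean and with centring and above 0 with quantile normalization, while Rps25 stays between −1.79 and −1.67 and Rpl10a between 0.66 and 0.82.

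In the Leydig fractions the largest rise after Rps4x was that of Rps6, the target of the S6 kinases, which had 395 and 320 units in KO, against 213 and 199 in WT. The difference was 0.74 ± 0.11 (adjusted p = 0.00421), at a low signal. Rps3, which lines the entry channel of the messenger RNA, rose by 0.30 ± 0.02 (adjusted p = 0.000394), Rps18 by 0.23 ± 0.03 (adjusted p = 0.002) and Rps15 by 0.23 ± 0.02 (adjusted p = 0.000907). Centring on medians shifted all genes tested by −0.29 in this comparison and gave 0.005 for Rps3 (adjusted p = 0.851), −0.06 for Rps18 and −0.07 for Rps15. With the mean of probe sets Rps3 was at 0.26 (adjusted p = 0.0591). After Rps25, the falls were small, with Rps20 at −0.20 ± 0.02 (adjusted p = 0.00126) and Rpl41, Rps29, Rps7 and Rps28 between −0.13 and −0.12. The mean over probe sets gave 0.06 for Rps20 and 0.05 for Rpl41, so their direction rests on the probe set used. The 2 KO arrays and the 2 WT arrays were nearly identical within their pairs, with SDs of the log2 difference over all genes of 0.077 and 0.088.

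In polysome RNA, Rpl41 had 10574, 5279 and 13074 units in KO, against 18501, 16085 and 25334 in WT. The groups did not overlap, yet the difference of −1.12 ± 0.34 did not pass (adjusted p = 0.105). The replicate block gave adjusted p = 0.000778, and the fit of all 28 arrays gave adjusted p = 0.000974. Rpl27 had 9437, 10090 and 11205 units in KO and 8033, 7630 and 7652 in WT, again with no overlap, at 0.40 ± 0.19 (adjusted p = 0.298). For Rpl10a the difference was 0.16 ± 0.27 (adjusted p = 0.782).

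The second question was how these transcripts differ between round spermatids, the haploid cells after meiosis, and spermatocytes, the cells in meiosis. In KO cells 20 of 40 members passed, 6 higher and 14 lower in round spermatids, where 85.3% of all genes did (38.8% higher and 46.5% lower). In WT cells 27 of 40 passed, 16 higher and 11 lower, where 87.2% of all genes did (36.2% higher and 51% lower). The member median was −0.10 in KO cells, beside −0.10 for all genes, and 0.09 in WT cells, beside −0.24. The splits depended on the scaling. With quantile normalization they were 2 higher and 31 lower in KO cells and 3 higher and 33 lower in WT cells, and with centring on medians 1 higher and 21 lower in KO cells and 11 higher and 11 lower in WT cells. Under all 3 scalings 1 member was called higher (Rps4l) and 14 lower in KO cells, and 1 higher (Rpl27a) and 11 lower in WT cells. The signal of Rpl27a was low, at 249 to 280 units in WT spermatocytes and 379 to 452 in WT round spermatids.

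Rpl10a fell most in WT, by 1.61 ± 0.06 in round spermatids relative to spermatocytes (adjusted p = 1.58e-08), with 1909, 1908 and 1985 units, against 5623 to 6317 in spermatocytes. In KO cells it fell by 0.95 ± 0.07 (adjusted p = 1.73e-06). Rps25 fell by 1.18 ± 0.12 in KO cells (adjusted p = 1.07e-05) and by 1.07 ± 0.06 in WT cells (adjusted p = 2.87e-07). Both genes kept these calls under every alternative run.

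Rps4x also fell with stage, by 0.82 ± 0.07 in KO cells (adjusted p = 3.13e-06) and by 0.89 ± 0.19 in WT cells (adjusted p = 0.00175). The Leydig markers fell in the same comparisons, with sums of 807 to 953 in KO round spermatids and 5714 to 6321 in KO spermatocytes, and 619 to 631 and 4019 to 4645 in the WT cells; their part in the Rps4x values was not tested. Rps3 fell by 0.82 ± 0.05 in KO cells (adjusted p = 6.5e-07) and by 0.91 ± 0.11 in WT cells (adjusted p = 4.34e-05), but another probe set of Rps3 rose by 0.93 in WT cells, so its direction is uncertain.

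Rpl27, at −0.68 ± 0.06 (adjusted p = 2.51e-06), and Rpl4, at −0.50 ± 0.07 (adjusted p = 0.000127), fell in WT round spermatids too. Rps15 fell by 0.67 ± 0.06 in KO cells (adjusted p = 7.01e-06), and Rps27l, a copy of Rps27 known to respond to p53, by 0.58 ± 0.06 (adjusted p = 1.52e-05). The rises were weaker. In WT cells Rps20 rose by 0.85 ± 0.18 (adjusted p = 0.00147), Rpl41 by 0.65 ± 0.08 (adjusted p = 7.64e-05) and Rpl27a by 0.64 ± 0.08 (adjusted p = 4.51e-05). Rps29 (0.62), Rpl35 (0.55) and Rpl39l (0.52) also passed in WT cells. With quantile normalization Rpl41, Rps29 and Rpl39l had differences of −0.07, −0.22 and −0.20, Rpl35 was at 0.000 (adjusted p = 0.999) and Rps20 at 0.20 (adjusted p = 0.0919). With the mean of probe sets Rps20 was at −0.19 (adjusted p = 0.262). Among the members called in KO cells Rps4l rose most, by 0.41 ± 0.08 (adjusted p = 0.000704), where the difference in WT cells was −0.00 ± 0.07 (adjusted p = 0.995).

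The KO effect itself differed between round spermatids and spermatocytes for 11 of 40 members, 3 more positive and 8 more negative in round spermatids, against 46% of all genes (32.3% and 13.7%). The replicate block gave 24, with 4 more positive and 20 more negative, the fit of all 28 arrays gave 0, and averaging nearly identical arrays gave 2. Rpl10a, Rps4l (both given above) and Rpl27 (0.33 ± 0.08, adjusted p = 0.00452) were more positive in round spermatids. Other probe sets of Rpl27 gave −0.04 and −0.13. With the mean of probe sets Rpl27 was at 0.05 (adjusted p = 0.541), and centring on medians ended its call (adjusted p = 0.0902). Rps20 was the most negative, at −0.66 ± 0.22 (adjusted p = 0.0242), and its call was lost without any 1 of 3 round spermatid arrays (WT 1 or 2, KO 3). Without WT round spermatids 1 the count was 7.

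The third question was how WT fractions differ from each other. Between the WT Leydig fraction and the mean of WT spermatocytes and round spermatids, 16 of 41 members passed, 6 higher and 10 lower in the Leydig fraction, against 52.6% of all genes (30.7% higher and 21.9% lower). Without either 1 of the WT Leydig arrays 4 passed, in fits where the lone array is assumed to vary like the germ cell arrays. The direction depended on the scaling, with 27 higher and 2 lower under quantile normalization and 2 higher and 31 lower with centring on medians, which shifted all genes by −0.25. Rps4x stood far from the rest, with 2165 and 2115 units in the WT Leydig fraction, against 392 to 410 in WT spermatocytes and 141 to 284 in WT round spermatids. It was higher by 2.80 ± 0.19 (adjusted p = 3.22e-06), a call that held under every alternative run. Leydig markers (4 of 4) and macrophage markers (4 of 4 tested) were higher in the same comparison, and their part was not tested.

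Rpl10a was higher in the WT Leydig fraction by 0.57 ± 0.06 (adjusted p = 3.58e-05) and Rps25 by 0.34 ± 0.06 (adjusted p = 0.00123), while Rps3 (0.32), Rpl27a (0.21) and Rpl27 (0.17) passed by less. Each of these genes had a mean level between those of the 2 germ cell stages rather than above both. Lower in the Leydig fraction were Rps29 (−0.51), Rps20 (−0.50), Rpl39l (−0.49), Rpl41 (−0.44), Rps28 (−0.43) and Rpl37 (−0.43). Of these, Rps29, Rpl41 and Rps28 were at 0.13, 0.08 and 0.11 with quantile normalization. The same setting gave −0.009 for Rps20 (adjusted p = 0.946) and −0.046 for Rpl39l (adjusted p = 0.511). With the mean of probe sets Rps20 was at −0.014 (adjusted p = 0.949) and Rpl41 at −0.128 (adjusted p = 0.232). Only Rpl37 was called lower under all 3 scalings. With centring on medians Rpl27a and Rpl27 were at −0.04 and −0.08. Centring also ended the calls of Rps25 (0.086, adjusted p = 0.244) and Rps3 (0.067, adjusted p = 0.585). With the mean of probe sets Rps3 was at 0.13 (adjusted p = 0.351).

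Between WT polysome RNA and the mean of the WT germ cells, 20 of 40 members passed, 6 higher and 14 lower in polysome RNA, against 67.5% of all genes (35.9% higher and 31.6% lower). Centring on medians gave 2 higher and 35 lower while shifting all genes by −0.70, and the deposited scale gave 0 higher and 35 lower. Polysome RNA came from whole testes, and its Sertoli markers summed to 10376 to 20285 units, against 339 to 1135 in the WT germ cells. Leydig markers (4 of 4, median 2.58) and macrophage markers (4 of 4 tested, median 1.68) were also higher in polysome RNA, with Leydig sums of 12064 to 26740, against 619 to 4645 in the WT germ cells. The part of these cells in the differences was not tested.

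Rpl37, a zinc-binding protein of the large subunit, had 455, 566 and 502 units in WT polysome RNA, against 1667 to 2044 in WT spermatocytes and 1578 to 2327 in WT round spermatids. It was lower by 1.83 ± 0.14 (adjusted p = 8.29e-07). Rplp0, the base of the acidic stalk that recruits translation factors, had 6906, 10580 and 6176 units, against 15606 to 20071 in WT spermatocytes and 16471 to 22011 in WT round spermatids, and was lower by 1.26 ± 0.17 (adjusted p = 5.38e-05). Neither gene's polysome arrays overlapped with the germ cell arrays. Rps15 was lower by 1.07 ± 0.11 (adjusted p = 6.39e-06), Rps20 by 0.99 ± 0.16 (adjusted p = 0.000289), Rps18 by 0.81 ± 0.12 (adjusted p = 0.000113) and Rps24 by 0.69 ± 0.12 (adjusted p = 0.000435). With the mean of probe sets Rps20 was at −0.33 (adjusted p = 0.0655) and Rps18 at −0.195 (adjusted p = 0.0756). Without probe sets ending in _s_at or _x_at Rps18 was at −0.30 (adjusted p = 0.0854).

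Higher in WT polysome RNA were Rps4x (2.09 ± 0.21, adjusted p = 6.98e-06), Rpl27a (1.20 ± 0.25, adjusted p = 0.00125), Rpl10a (1.10 ± 0.16, adjusted p = 0.000115) and Rpl22, an RNA-binding member (0.65 ± 0.09, adjusted p = 7.14e-05). Rps3 (0.59) and Rplp2, an acidic stalk protein (0.31), also passed. On the deposited scale, where WT polysome arrays 1 and 2 were unscaled, Rps4x was at 0.55 (adjusted p = 0.392) and Rpl27a, Rpl10a, Rpl22, Rps3 and Rplp2 were below 0. With centring, Rpl22, Rps3 and Rplp2 were below 0 too, at −0.05, −0.11 and −0.38. Centring also ended the call of Rpl27a (0.50, adjusted p = 0.0853). Without probe sets ending in _s_at or _x_at Rpl22 was at 0.10 (adjusted p = 0.496). Rps25 differed by −0.25 ± 0.21 (adjusted p = 0.323), by −0.97 (adjusted p = 2.03e-05) without the arrays of conflicting description, by −0.54 (adjusted p = 0.031) without WT polysome 1 and by 0.11 (adjusted p = 0.38) without WT polysome 3.

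**Figure D5:**
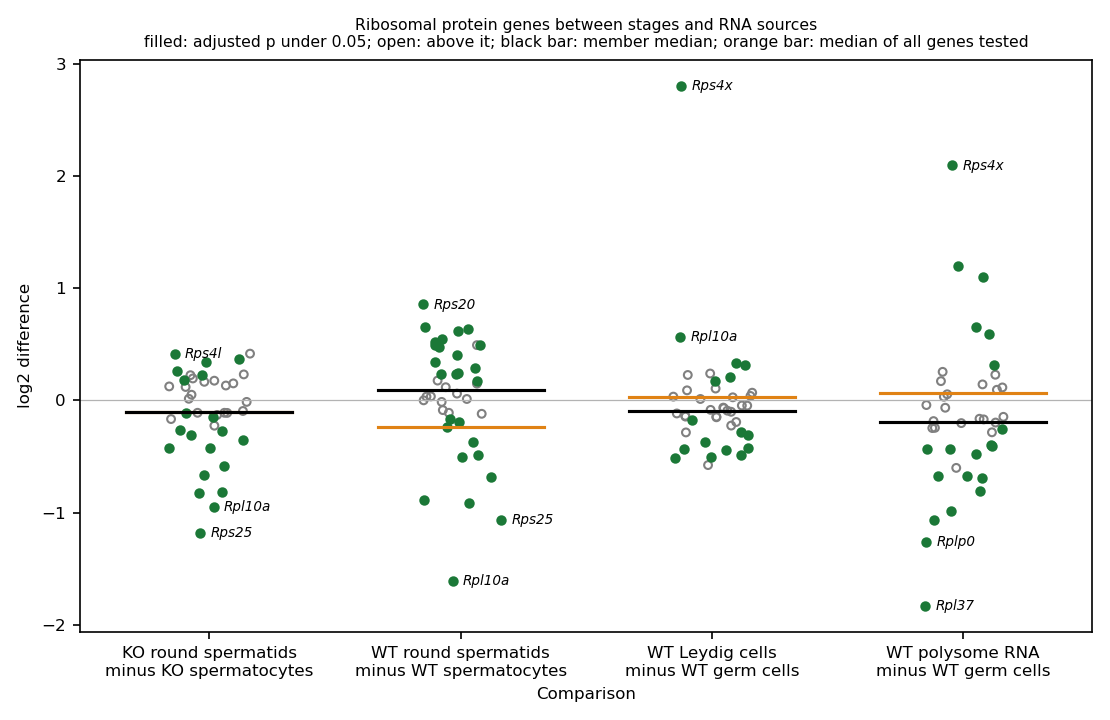
The log2 difference of each ribosomal protein gene tested between round spermatids and spermatocytes (KO, then WT) and between the WT Leydig fraction or WT polysome RNA and the WT germ cells, filled where the adjusted p was under 0.05, with the member median in black and the median of all genes in orange. Rps4x is the highest point in both fraction comparisons at 2.80 and 2.09, and Rpl10a and Rps25 are among the lowest in both stage comparisons.

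The last question was which transcripts GRTH antibody recovers from WT polysomes above control IgG. No member passed: 0 of 40 were called, and 0 had an unadjusted p under 0.05, as 0% of all 9097 genes were called by limma. The fit of all 28 arrays, which takes its spread mostly from tighter groups, called 6 members, 5 higher and 1 lower. The smallest p-values were those of Rpl37a, Rplp0 and Rps26. Rpl37a had 52072 and 77107 units in GRTH IP, against 31065 and 27163 in IgG IP, a difference of 1.12 ± 0.59 (adjusted p = 0.977). Rplp0 had 8304 and 12477 units in GRTH IP, against 21723 and 16911 in IgG IP, at −0.91 ± 0.59 (adjusted p = 0.977). Rps26, at the exit channel of the messenger RNA, had 49723 and 24187 units in GRTH IP, against 29207 and 8933 in IgG IP, at 1.10 ± 0.72 (adjusted p = 0.977). The arrays of Rpl37a and Rplp0 did not overlap and those of Rps26 did. Rps25 (0.57 ± 0.65), Rps4x (0.81 ± 0.69) and Rpl10a (0.45 ± 0.74) did not pass either. The members' median was 0.30, beside −0.02 for all genes.

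Paired copies within the family were compared only each with itself across groups. Rpl39, X-linked, was dim, with a lowest array of 109 and a highest of 265 units over the 28 arrays, and in round spermatids it differed by −0.01 ± 0.11 between KO and WT (adjusted p = 0.925). Rpl39l, its copy known for expression in testis, had 26236, 22452 and 20084 units in KO round spermatids, against 29838, 26536 and 21030 in WT, which overlap. In KO spermatocytes it had 15642 to 20863 units, against 15121 to 20900 in WT, again with overlap. Rpl39l in the Leydig fractions had 14460 and 14634 units in KO and 15126 and 15273 in WT, a fall of 0.06 ± 0.02 (adjusted p = 0.0463). That call did not hold under all 3 scalings.

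Rps27 was dim and variable, with 93.4 to 449 units in KO polysome RNA, against 106.5 to 240 in WT, and it passed in none of the comparisons in which it was tested. Rps27l had 3977 to 4422 units in KO round spermatids, against 4168 to 5623 in WT, and its KO effect passed in none of the 4 RNA sources. Rpl3l, known as the muscle form of Rpl3, stayed between 4.26 and 84.6 units on all arrays and was not tested. Rplp0 and Rplp2 of the stalk, and Rpsa, also known as a laminin receptor, did not pass between KO and WT in any of the 4 sources, with differences of −0.11 to 0.27 for Rplp0, −0.05 to 0.37 for Rplp2 and −0.09 to 0.06 for Rpsa.

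Genes near the family in function were counted for comparison. Of 74 mitochondrial ribosomal protein genes tested in round spermatids, 30 were higher and 9 lower in KO, with a median of 0.13, where 41% of all genes were higher and 22.4% lower. The share higher was thus near that of all genes. Of 26 genes of ribosome assembly, which process ribosomal RNA and join it to the proteins, 19 were higher and 2 lower, with a median of 0.51, beside −0.11 for the ribosomal protein genes and 0.15 for all genes. The spermatocyte and spermatogonial markers given with Rpl10a moved the same way, and their part was not tested. Among the assembly genes Gnl2 rose by 1.23 ± 0.08 (adjusted p = 2.22e-05), Gar1 by 1.09 ± 0.08 (adjusted p = 3.13e-05) and Fbl, the methyltransferase fibrillarin, by 0.70 ± 0.09 (adjusted p = 0.000506), while Gnl3 fell by 0.32 ± 0.06 (adjusted p = 0.0031). Of 17 other genes whose messenger RNAs begin with a pyrimidine run, 2 were higher and 4 lower there, with a median of −0.15. Eef1d, a subunit of elongation factor 1, fell in KO in all 4 sources, by 1.64 in polysome RNA, 0.27 in spermatocytes, 1.14 in round spermatids and 0.69 in the Leydig fractions. In KO polysome RNA 0 of 75 mitochondrial ribosomal protein genes, 0 of 27 assembly genes and 1 of 17 of the pyrimidine-run list passed. Of all genes tested there 6.34% passed, and the share of the pyrimidine-run list was near that.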

How the data were processed

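Total, polysome or immunoprecipitated RNA of mouse testis was measured on 28 one-colour Affymetrix arrays, and the deposited values are 1 signal intensity per probe set, made with GCOS per the submitters' processing notes, whose version the labels do not state. For 24 arrays the 2%-trimmed mean of the deposited intensity was 500. The other 4, KO and WT polysome 1 and 2, were unscaled, at 29.8 to 168, so all arrays were rescaled to 500. Values are log2(signal + 16). Of 45101 probe sets, 34945 had 1 symbol in the platform annotation, 932 several, 9160 none and 64 were controls. All 100 member probe sets matched RefSeq by Entrez ID and no symbol changed. For a gene with several probe sets the one of highest mean level was used, and its difference depends on that choice. Each comparison was fitted in limma 3.58.1 (R 4.3.3) on the arrays of its own groups, over 9097 genes whose mean signal on those arrays reached the median, with Benjamini-Hochberg adjustment and a threshold of 0.05. The standard error is limma's, with moderated variance. The number of arrays limits the precision. The fits were tested on simulated data.

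Samples were grouped by title. Same-numbered arrays deviated together: the correlations of their deviations from the group means were 0.41 to 0.632 in polysome RNA, 0.254 to 0.339 in spermatocytes and 0.142 to 0.22 in round spermatids. The numbers were therefore taken to pair those samples, on the evidence of the data and not of the labels. The main fits did not use this pairing. The pairs across stages gave 0.189 to 0.246 in WT and 0.179 to 0.201 in KO. The 2 pairs of Leydig arrays gave 0.01 each, and the 2 IP pairs 0.418. A fit blocked on replicate number was an alternative, as were quantile normalization, centring on medians, no filter on dim genes, an offset of 64, the mean of probe sets, leaving out probe sets with _s_at or _x_at, 1 fit of all 28 arrays, the deposited scale, leaving out arrays of conflicting description, averaging nearly identical arrays and leaving out each array. Named genes were Rps25, Rps4x and Rpl10a, the 6 largest differences called in each direction or, where none was called, the 3 smallest p-values, and the genes of paired copies. The members, lists and alternatives were chosen with earlier results of these data known. Promoter sequences are RefSeq's for GRCm38.p6.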

Additional observations from a re-analysis of the deposited data

Results flagged for a closer look

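The KO effect (KO minus WT, log2) differed between round spermatids and spermatocytes for 9 of the genes described, by limma's interaction term. It was more positive in round spermatids for Rpl10a (0.66), Rps4l (0.415) and Rpl27 (0.33). It was more negative for Rps20 (−0.66), Rpl41 (−0.43), Rps15 (−0.43), Rpl27a (−0.37), Rpl35 (−0.37) and Rpl11 (−0.36). None of the 9 passed in the fit of all 28 arrays, and Rpl10a passed in every other alternative. Averaging nearly identical arrays ended 7 of the 9 calls, those of Rps15 (adjusted p = 0.0857), Rps4l (0.088), Rpl27 (0.119), Rpl41 (0.127), Rps20 (0.171), Rpl11 (0.178) and Rpl27a (0.249). Quantile normalization ended the calls of Rpl11, Rpl35 and Rpl41. The mean of probe sets ended those of Rpl27 (adjusted p = 0.541), Rps20 (0.127) and Rpl35 (0.179), and centring on medians that of Rpl27 (0.0902). Leaving out single arrays ended the call of Rps20 (without WT round spermatids 1 or 2, or KO round spermatids 3), of Rpl41 (4 arrays) and of Rpl11 (7 arrays). In 56 combinations of a gene with KO or WT spermatocytes, examined for a single outlying array, 0 passed Dixon's test at its 95% critical value. The 4 arrays of each group lay in near pairs, numbers 1 with 2 and 3 with 4. The SD of the log2 difference over all genes was 0.122 to 0.138 within these pairs and 0.193 to 0.221 across them. In such a layout a single array can hardly stand out, so the test cannot decide whether one was outlying.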

How the results depend on the processing

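Counts of ribosomal protein genes called moved as follows. In KO against WT polysome RNA, 0 became 1 in the fit of all 28 arrays and 3 with the replicate block. In spermatocytes, 4 became 10 with quantile normalization, 2 with centring on medians, 2 without the filter, 1 in the fit of all 28 arrays, 13 with the replicate block and 2 with nearly identical arrays averaged, and 2 to 6 without single arrays. In round spermatids, 13 became 24 with quantile normalization, 21 with centring, 7 without the filter, 8 with the mean of probe sets, 2 in the fit of all 28 arrays and 7 with arrays averaged, and 9 to 18 without single arrays. In the Leydig fractions, 26 (18 higher, 8 lower) became 32 with quantile normalization (30 and 2), 37 with centring (3 and 34), 16 without the filter, 16 with the mean of probe sets and 2 in the fit of all 28 arrays, and 20 to 22 without single arrays. GRTH IP against IgG IP gave 6 in the fit of all 28 arrays in place of 0. For round spermatids against spermatocytes, KO gave 33 with quantile normalization and 5 in the fit of all 28 arrays in place of 20 (17 to 24 without single arrays), and WT gave 16 in the fit of all 28 arrays and 16 with arrays averaged in place of 27 (22 to 27). The stage difference of the KO effect gave 7 without the filter, 0 in the fit of all 28 arrays, 24 with the replicate block and 2 with arrays averaged in place of 11 (7 to 13). The WT Leydig fraction against germ cells gave 29 with quantile normalization, 33 with centring, 8 without the filter, 1 in the fit of all 28 arrays and 9 with arrays averaged in place of 16 (4 to 22). WT polysome RNA against germ cells gave 37 with centring and 35 on the deposited scale in place of 20 (19 to 24).

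Differences that changed sign were these. On the deposited scale, KO against WT polysome RNA gave Rpl27 −0.016 and Rpl10a −0.25, and WT polysome RNA against germ cells gave Rpl27a −0.33, Rpl10a −0.48, Rpl22 −0.93, Rps3 −0.99 and Rplp2 −1.27. With centring, the same WT comparison gave Rpl22 −0.048, Rps3 −0.11 and Rplp2 −0.38, the WT Leydig fraction gave Rpl27a −0.039 and Rpl27 −0.077, KO against WT Leydig fractions gave Rps18 −0.06 and Rps15 −0.068, and the stage difference of the KO effect gave Rps4x −0.021. With quantile normalization, Rpl35 was 0.05 in KO against WT round spermatids and −0.015 between KO stages, Rpl41 −0.069, Rps29 −0.22 and Rpl39l −0.20 between WT stages, Rps29 0.13, Rpl41 0.077 and Rps28 0.11 in the WT Leydig fraction, and Rps4x −0.07 in the stage difference of the KO effect. With the mean of probe sets, Rps20 was 0.056 and Rpl41 0.051 in KO against WT Leydig fractions, and Rps20 −0.19 between WT stages. Without arrays of conflicting description, Rps25 was 0.16 in KO against WT polysome RNA. Without single arrays, Rpl10a ran between −0.094 and 0.37 in KO against WT polysome RNA and between −0.30 and 1.20 in the IP comparison, Rps4x between −0.20 and 0.27 in the stage difference, and Rps25 between −0.54 and 0.11 in WT polysome RNA against germ cells. The cause of these changes was not tested.

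The calls of Rps25 in the 3 cell fractions held in every alternative, the replicate block included. Over all values for named genes, those of Rps25 included, 669 kept direction and side of the threshold under settings, 148 lost the call, 9 gained it and 28 changed sign. Without single arrays 690 kept both, 69 lost the call, 2 gained it and 5 changed sign. Limits are the probe sets shared within this family, the 2 to 4 arrays a group and dim signals such as Rps6 and Rpl39.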
